A study of Mus musculus with 11 samples.

Results

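Galectins are lectins that bind beta-galactosides, and the expression of their genes was compared between 3 populations of mouse CD4+ T cells on a custom glyco-gene microarray. The family was taken as 9 genes, namely Lgals1, Lgals2, Lgals3, Lgals4, Lgals7, Lgals8, Lgals9, Lgals12 and Lgals3bp. A gene was measured where a probe set carried a RefSeq transcript of it, and 8 of the 9 genes had 1 probe set each, among 909 named genes and 1246 probe sets in all. No probe set was matched to Lgals3bp, a secreted glycoprotein that galectins bind, and it was not analysed here. The cells were sorted by flow cytometry from spleens of female C57BL/6 mice, and no treatment or genetic change was given for any of them. Treg cells (CD4+CD25+CD45RBlow) gave 3 arrays, numbered 1, 2 and 4. Activated or memory cells (CD4+CD25-CD45RBlow, called CD45RBlow cells below) gave 4 arrays, and naive cells (CD4+CD25-CD45RBhigh, called CD45RBhigh cells) gave 4. Mice aged 4 to 6 weeks were the source of the CD25- cells, and no age was given for the Treg mice. The labels do not say whether animals were pooled or whether replicates came from separate animals, so the tests speak only of the spread among these arrays, which may be technical.

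Most galectins are made in the cytosol, leave the cell without a signal peptide and crosslink glycoproteins on cell surfaces. Their preferred ligand is N-acetyllactosamine, a disaccharide carried on branched N-glycans and on core 2 O-glycans, and capping by sialic acid changes which galectins can bind. By build, galectin-1, galectin-2 and galectin-7 are prototype galectins that form dimers, galectin-3 is a chimera with a long tail that lets it form oligomers, and galectin-4, galectin-8, galectin-9 and galectin-12 join a pair of carbohydrate-binding domains by a linker. In T cells, galectin-1 is known for its part in the suppressive activity of Treg cells and in T cell death, galectin-3 for restraining T cell receptor signalling, and galectin-9 for binding Tim-3.

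All values below are log2 expression values, normalised together by the authors, and a difference of 1 is a doubling. A level belongs to its own probe set and cannot be ranked against that of another gene. Array medians lay between 4.85 and 4.94, and the first quartile of all values was 3.64. Of 10 Treg markers, 4 were on named probe sets (Il2ra, Il10, Itgae and Klrg1), and their mean per array was 9.35 to 9.88 in Treg cells, 6.33 to 7.16 in CD45RBlow cells and 4.85 to 5.16 in CD45RBhigh cells. Foxp3 was not among the named probe sets, and Il2ra encodes CD25, by which the cells were sorted. A call means an adjusted p under 0.05 in limma's moderated test, two-sided, with Benjamini-Hochberg adjustment over all 1246 probe sets.

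Lgals1 and Lgals3 were higher in Treg cells and in CD45RBlow cells than in CD45RBhigh cells, and Lgals4 was lower in Treg cells than in CD45RBhigh cells. Against CD45RBhigh cells, 3 of the 8 galectins were called in Treg cells, 2 higher and 1 lower, where 18.9% of all probe sets were called, 10.3% higher and 8.59% lower. Between CD45RBlow and CD45RBhigh cells, 2 of 8 were called, both higher in CD45RBlow cells, against 12.6% of all probe sets (7.62% higher and 4.98% lower). Between Treg and CD45RBlow cells, 0 of 8 were called, against 12.5% of all probe sets (6.74% higher and 5.78% lower). In that comparison 2 galectins, Lgals1 and Lgals9, had an unadjusted p under 0.05, and limma's fit without moderation also called 0. The median difference of the 8 genes was -0.033 in Treg against CD45RBhigh cells, 0.014 in Treg against CD45RBlow cells and -0.048 in CD45RBlow against CD45RBhigh cells, beside -0.039, 0.044 and -0.081 over all probe sets. The differences of the family were thus carried by a few genes, and the count over 8 genes was not tested against the background. When the number shared by arrays was a blocking term, 3, 1 and 3 galectins were called in the comparisons of Treg with CD45RBhigh, Treg with CD45RBlow and CD45RBlow with CD45RBhigh cells, where the share of all probe sets rose to 26.5%, 19.7% and 21.7%.

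**Figure D1:**
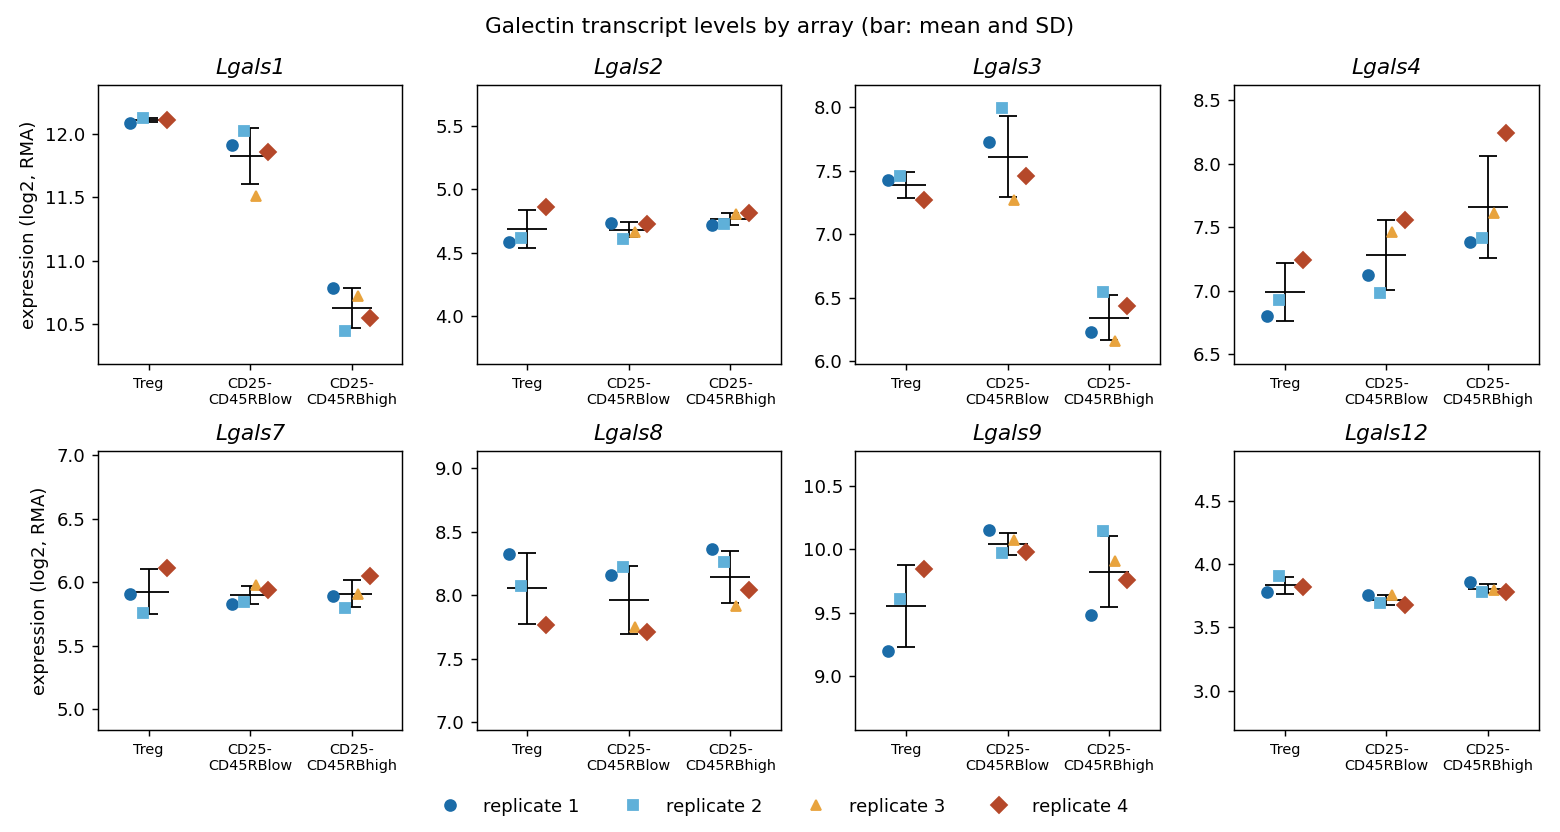
Log2 expression of each of the 8 measured galectins (vertical axis, a range of equal span in each panel) on every array (points, marked by replicate number) in Treg, CD45RBlow and CD45RBhigh cells, with bars for the mean and SD. The Lgals1 and Lgals3 points of Treg and CD45RBlow cells lie above all CD45RBhigh points, and the Lgals4 points of Treg cells lie below them.

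Among the prototype galectins, Lgals1 carried the largest differences. Its level on the Treg arrays was 12.09, 12.12 and 12.11, a mean of 12.11 ± 0.017 (SD, n = 3). The CD45RBlow arrays read 11.91, 12.02, 11.51 and 11.85, a mean of 11.82 ± 0.22 (SD, n = 4). The CD45RBhigh arrays read 10.79, 10.45, 10.73 and 10.55, a mean of 10.63 ± 0.16 (SD, n = 4). No CD45RBhigh array reached any array of the other populations, and the Treg arrays were the highest of all. Treg cells were above CD45RBhigh cells by 1.48 (SE 0.12), which is 2.79-fold with a 95% interval of 2.33 to 3.34 (limma adjusted p = 3.18e-06). CD45RBlow cells were above CD45RBhigh cells by 1.19 (SE 0.11), 2.29-fold with an interval of 1.94 to 2.70 (limma adjusted p = 1.85e-05). Within each replicate number the Treg array exceeded its CD45RBhigh counterpart by 1.30, 1.68 and 1.56, so the direction held in 3 of 3 pairs. Between Treg and CD45RBlow cells the difference was 0.29 (95% interval 0.026 to 0.54), which was not called (limma adjusted p = 0.169) although the arrays did not overlap. Without CD45RBlow replicate 3 it was 0.18 (adjusted p = 0.290). In these sorted populations, a share of cells with more transcript and more transcript per cell cannot be told apart.

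The other prototype galectins showed no called difference. Lgals2, described mainly from the gut, ranged from 4.58 to 4.86 over all 11 arrays, with means of 4.68 ± 0.15 in Treg, 4.68 ± 0.058 in CD45RBlow and 4.76 ± 0.047 in CD45RBhigh cells (SD). Lgals7, a gene of stratified epithelia, ranged from 5.76 to 6.11, with means of 5.92 ± 0.18, 5.90 ± 0.074 and 5.91 ± 0.10 in the same order. Its Treg arrays differed from CD45RBhigh arrays by 0.013, with a 95% interval of -0.18 to 0.21 (limma adjusted p = 0.946). The interval for Lgals2 in that comparison ran from -0.24 to 0.082 (limma adjusted p = 0.562). Differences of the size seen for Lgals1 thus lay outside the intervals of both genes. The Lgals2 means lay under the lowest array median, 4.85. Whether either probe set detected its transcript was not tested, and one that did not would give a narrow interval in any case.

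Lgals3, the chimera galectin, was higher in Treg and CD45RBlow cells than in CD45RBhigh cells. The Treg arrays read 7.43, 7.46 and 7.27, a mean of 7.39 ± 0.10 (SD, n = 3). The CD45RBlow arrays read 7.73, 7.99, 7.27 and 7.46, a mean of 7.61 ± 0.32 (SD, n = 4). The CD45RBhigh arrays read 6.23, 6.55, 6.16 and 6.43, a mean of 6.34 ± 0.18 (SD, n = 4). All CD45RBhigh arrays were below every Treg and CD45RBlow array, while the Treg values fell inside the CD45RBlow range. CD45RBlow cells exceeded CD45RBhigh cells by 1.27 (SE 0.14), 2.41-fold with a 95% interval of 1.93 to 3.01 (limma adjusted p = 0.000113). Treg cells exceeded CD45RBhigh cells by 1.04 (SE 0.16), 2.06-fold with an interval of 1.62 to 2.62 (limma adjusted p = 0.000526). Between Treg and CD45RBlow cells the difference was -0.23 (95% interval -0.57 to 0.12), which was not called (limma adjusted p = 0.450). The order of population means therefore differed from that of Lgals1, with CD45RBlow cells highest for Lgals3 and Treg cells highest for Lgals1, but neither top place was separated from the next by a called difference.

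Galectin-3 is abundant in macrophages, and marker lists of other cells were read beside it. Of 22 myeloid markers 11 were measured, and their mean per array was 3.56 to 3.62 in Treg, 3.52 to 3.58 in CD45RBlow and 3.62 to 3.77 in CD45RBhigh cells. In each population 7 of the 11 lay under the first quartile of all values, and none was called higher in Treg or CD45RBlow cells than in CD45RBhigh cells. Against CD45RBhigh cells, 3 were called lower in CD45RBlow cells, Clec10a at -0.31, Cd209a at -0.26 and Siglech at -0.53 (limma adjusted p = 0.0170, 0.0320 and 0.0414). In Treg cells 1 was called lower, Cd209a at -0.24 (limma adjusted p = 0.0476). Over all probe sets, 4.98% were called lower in CD45RBlow cells and 8.59% in Treg cells, and 7.62% and 10.3% were called higher. The 6 genes listed for activated or memory T cells moved with Lgals1 and Lgals3 between the CD25- populations. Of these, 6 of 6 were called higher in CD45RBlow cells, beside 7.62% of all probe sets, with array means of 9.43 to 10.1 against 6.82 to 7.43. In Treg cells that list stood at 7.70 to 7.73, with 2 of 6 called higher than in CD45RBhigh cells and 5 of 6 called lower than in CD45RBlow cells. Of all probe sets, 10.3% were called higher in the first of these comparisons and 5.78% lower in the second. Klrd1, a receptor chain of natural killer and CD8 T cells, was lower in Treg cells by differences of -5.29 from CD45RBhigh cells and -4.35 from CD45RBlow cells, with means of 3.93, 8.28 and 9.22 in Treg, CD45RBlow and CD45RBhigh cells. It was the largest of 4 lower calls among the 5 measured of 9 markers of those cells in Treg against CD45RBhigh cells, and 3 were lower against CD45RBlow cells. The shares of all probe sets called lower in Treg cells were 8.59% and 5.78%. The 3 measured of 8 B cell markers had array means of 5.91 to 6.01, 5.64 to 5.88 and 5.61 to 5.77 in the same order, and Fcer2a had a mean of at most 3.35, under the first quartile. Cd72, with a mean of 8.24 in Treg cells, was higher there than in CD45RBhigh cells by 0.54 (limma adjusted p = 0.0173). Cd22 was higher than in CD45RBhigh cells by 0.29 in Treg cells (limma adjusted p = 0.0181) and by 0.59 in CD45RBlow cells (limma adjusted p = 0.000150). In those comparisons Cd22 had the direction of Lgals1 and Lgals3. Between Treg and CD45RBlow cells Cd22 was lower in Treg cells, at -0.30 (limma adjusted p = 0.0235), and Cd72 higher, at 0.85 (limma adjusted p = 0.00154). Fcer2a was not called in any comparison, so the measured B cell markers did not move together. Selp was the only one of 6 platelet and erythroid markers measured. It was higher in Treg cells by 0.37 against CD45RBhigh cells and by 0.48 against CD45RBlow cells (limma adjusted p = 0.0152 and 0.00490). Between CD45RBlow and CD45RBhigh cells it was not called, at -0.11 (limma adjusted p = 0.423). The part of any of these lists in the galectin differences was not tested.

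Of the 4 galectins with joined domains, only Lgals4 was called, in 1 comparison. Lgals4, best known from the epithelium of the gut, read 6.80, 6.93 and 7.24 in Treg cells, a mean of 6.99 ± 0.23 (SD, n = 3). In CD45RBlow cells it read 7.12, 6.98, 7.46 and 7.56, a mean of 7.28 ± 0.27 (SD, n = 4). In CD45RBhigh cells it read 7.38, 7.41, 7.61 and 8.24, a mean of 7.66 ± 0.40 (SD, n = 4). Every Treg array lay below every CD45RBhigh array, and the CD45RBlow arrays overlapped both. Treg cells were lower than CD45RBhigh cells by 1.59-fold, a log2 difference of -0.67 (SE 0.21, 95% interval -1.14 to -0.20, limma adjusted p = 0.0494). This call lay at the threshold and was lost in 10 of 24 alternative fits, over which the difference ran from -0.80 to -0.48 and the adjusted p from 0.000963 to 0.246. It was lost when any of 7 arrays was left out: Treg replicate 1 (adjusted p = 0.170), Treg replicate 2 (0.143), CD45RBlow replicates 1, 3 and 4 (0.0648, 0.0607 and 0.0533) and CD45RBhigh replicates 3 and 4 (0.0835 and 0.0733). The fits that left out an array held no block. With the replicate block, the difference of Treg from CD45RBhigh cells was -0.65 (SE 0.11, limma adjusted p = 0.000963). A block for arrays 1 and 2 against arrays 3 and 4 gave -0.59 (adjusted p = 0.00286). Between CD45RBlow and CD45RBhigh cells the difference was -0.38 (SE 0.20, limma adjusted p = 0.227), and the replicate block gave adjusted p = 0.0181. Without CD45RBhigh replicate 4 the difference shrank to -0.19 (adjusted p = 0.461). All 4 pairs of the same number had the lower value in CD45RBlow cells, by differences of -0.26, -0.43, -0.15 and -0.68. Muc1, the only one of 6 epithelial markers measured, was higher in Treg than in CD45RBhigh cells by 0.36 (limma adjusted p = 0.0257), opposite in direction to Lgals4.

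The promoter sequences of Lgals3 and Lgals4 are shown because these are called galectins that differed in opposite directions, Lgals3 higher and Lgals4 lower in Treg than in CD45RBhigh cells. Each is the 250 bases before the RefSeq transcription start on GRCm38.p6, 5′ to 3′ on the gene's own strand, which is the plus strand for both, at chr14:47373610-47373859 for Lgals3 and chr7:28833544-28833793 for Lgals4. Capitals mark matches to 4 motifs searched on both strands.
Lgals3: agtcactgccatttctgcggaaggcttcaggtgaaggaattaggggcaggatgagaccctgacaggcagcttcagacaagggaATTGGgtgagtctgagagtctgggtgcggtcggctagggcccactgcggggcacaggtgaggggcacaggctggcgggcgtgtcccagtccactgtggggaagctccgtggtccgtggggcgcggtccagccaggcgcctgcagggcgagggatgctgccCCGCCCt
Lgals4: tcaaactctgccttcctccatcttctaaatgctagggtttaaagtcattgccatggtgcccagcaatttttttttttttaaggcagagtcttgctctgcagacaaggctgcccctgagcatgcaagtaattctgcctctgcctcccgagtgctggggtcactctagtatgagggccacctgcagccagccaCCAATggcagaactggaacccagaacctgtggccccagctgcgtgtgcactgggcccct
The motifs were GGGCGG (the GC box), TATAAA (the TATA box), CCAAT (the CCAAT box) and TGANTCA (the AP-1 motif), which 32.7%, 12.4%, 33.8% and 6.75% of 32851 RefSeq promoter windows of this length held. The Lgals3 window held a GC box at position -7 and a CCAAT box at position -167, both on the minus strand, and the Lgals4 window held a CCAAT box at position -59 on the plus strand, counted from the start. None of these matches overlapped another. No match of TATAAA or TGANTCA lay in either window. A match says only that the letters are there. The promoter table was matched for 7 of the 9 genes, all but Lgals1 and Lgals12.

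Lgals9, whose protein binds Tim-3, showed its largest difference between Treg and CD45RBlow cells. The Treg arrays read 9.20, 9.61 and 9.84, a mean of 9.55 ± 0.32 (SD, n = 3). The CD45RBlow arrays read 10.15, 9.97, 10.07 and 9.98, a mean of 10.04 ± 0.084 (SD, n = 4). The CD45RBhigh arrays read 9.48, 10.14, 9.91 and 9.76, a mean of 9.82 ± 0.28 (SD, n = 4). All Treg arrays were below all CD45RBlow arrays, and the CD45RBhigh arrays overlapped both. Treg cells were 1.40-fold lower than CD45RBlow cells, a difference of -0.49 (SE 0.16, 95% interval -0.85 to -0.13), which was not called (limma adjusted p = 0.0861). Under the replicate block the difference was -0.47 and passed the threshold (adjusted p = 0.0478). It also passed without Treg replicate 4, at -0.64 (adjusted p = 0.0360), but without Treg replicate 1 it shrank to -0.32 (adjusted p = 0.289). With the replicate set as a block or the number as a random block it was not called (adjusted p = 0.0602 and 0.0516). Over all alternatives the adjusted p ran from 0.0360 to 0.495. The pairs of the same number differed by -0.95, -0.36 and -0.13, so the direction held in 3 of 3 pairs and the size was uneven. Havcr2, which encodes Tim-3, was higher in Treg than in CD45RBlow cells by 0.83 (SE 0.078, limma adjusted p = 2.77e-05), from means of 4.34 and 3.51, the lower of which is under the first quartile of all values.

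Lgals8 and Lgals12 were not called in any comparison. Lgals8, whose protein is known to mark damaged vesicles, read 8.32, 8.07 and 7.77 in Treg cells, 8.16, 8.22, 7.75 and 7.71 in CD45RBlow cells and 8.37, 8.26, 7.92 and 8.04 in CD45RBhigh cells. These ranges overlapped throughout, and the 95% interval of Treg against CD45RBhigh cells was -0.46 to 0.28 (limma adjusted p = 0.781). Same-number pairs of CD45RBlow and CD45RBhigh arrays differed by -0.20, -0.036, -0.17 and -0.33 (limma adjusted p with the replicate block 0.0952). Pairs of Treg and CD45RBhigh arrays differed by -0.041, -0.19 and -0.27 (adjusted p with the block 0.179). Pairs of Treg and CD45RBlow arrays differed by 0.16, -0.15 and 0.060. Lgals12, a gene of fat cells, ranged from 3.68 to 3.90, close to the first quartile of all values. Its means were 3.83 ± 0.065 in Treg, 3.72 ± 0.040 in CD45RBlow and 3.81 ± 0.037 in CD45RBhigh cells (SD). The CD45RBlow arrays of Lgals12 lay below all other arrays, yet neither difference was called, at 0.11 for Treg against CD45RBlow cells (limma adjusted p = 0.257) and -0.086 for CD45RBlow against CD45RBhigh cells (limma adjusted p = 0.277).

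**Figure D2:**
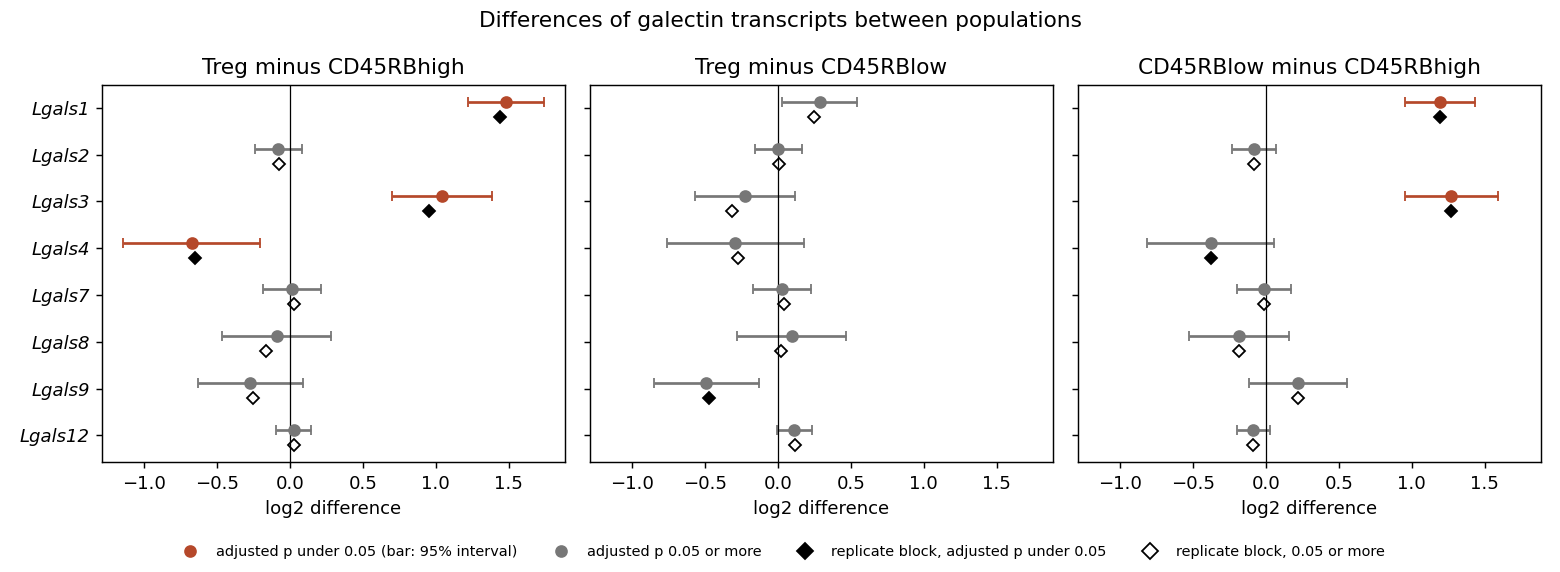
Log2 difference between populations (horizontal axis) for the 8 galectins in the 3 comparisons, with circles and 95% intervals from the fit over all 11 arrays and diamonds from the fit with the replicate block. Lgals1 at 1.48 and Lgals3 at 1.27 lead, and the intervals of Lgals7 include 0 in every comparison.

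Arrays numbered 1 and 2 stood apart from arrays numbered 3 and 4 in every population, and what a number marks was not given. With population in the model, 20.6% of all probe sets were called between these replicate sets, and 3 galectins were among them. Lgals8 was lower on arrays 3 and 4 by a difference of -0.41 (SE 0.059, limma adjusted p = 0.000849). Lgals4 was higher there by 0.47 (SE 0.096, limma adjusted p = 0.00527), and Lgals7 by 0.17 (SE 0.054, limma adjusted p = 0.0496). For Lgals8 the shift was larger than any difference between its population means. The Lgals4 means on arrays 1 and 2 and on arrays 3 and 4 were 6.86 and 7.24 in Treg, 7.05 and 7.51 in CD45RBlow and 7.39 and 7.93 in CD45RBhigh cells, with 1 Treg array on the side of arrays 3 and 4. The order of populations was the same in both sets.

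Within each replicate set, Lgals1 and Lgals3 were called in both comparisons with CD45RBhigh cells, and the differences of CD45RBlow cells were smaller on arrays 3 and 4. Treg cells exceeded CD45RBhigh cells in Lgals1 by 1.49 on arrays 1 and 2 (limma adjusted p = 0.000194) and by 1.47 on arrays 3 and 4 (adjusted p = 0.0167). For Lgals3 the values were 1.05 (adjusted p = 0.00158) and 0.97 (adjusted p = 0.0412). CD45RBlow cells exceeded CD45RBhigh cells in Lgals1 by 1.35 (adjusted p = 0.000431) and 1.04 (adjusted p = 0.0388). They exceeded them in Lgals3 by 1.47 (adjusted p = 0.000444) and 1.07 (adjusted p = 0.0276). The Lgals4 difference of Treg from CD45RBhigh cells was -0.53 on arrays 1 and 2 (adjusted p = 0.00513) and -0.69 on arrays 3 and 4, where it was not called (adjusted p = 0.246). Lgals9 in Treg against CD45RBlow cells stood at -0.65 (adjusted p = 0.129) and -0.18 (adjusted p = 0.495). Arrays 3 and 4 held 1 Treg array, which was taken to vary like the other populations.

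**Figure D3:**
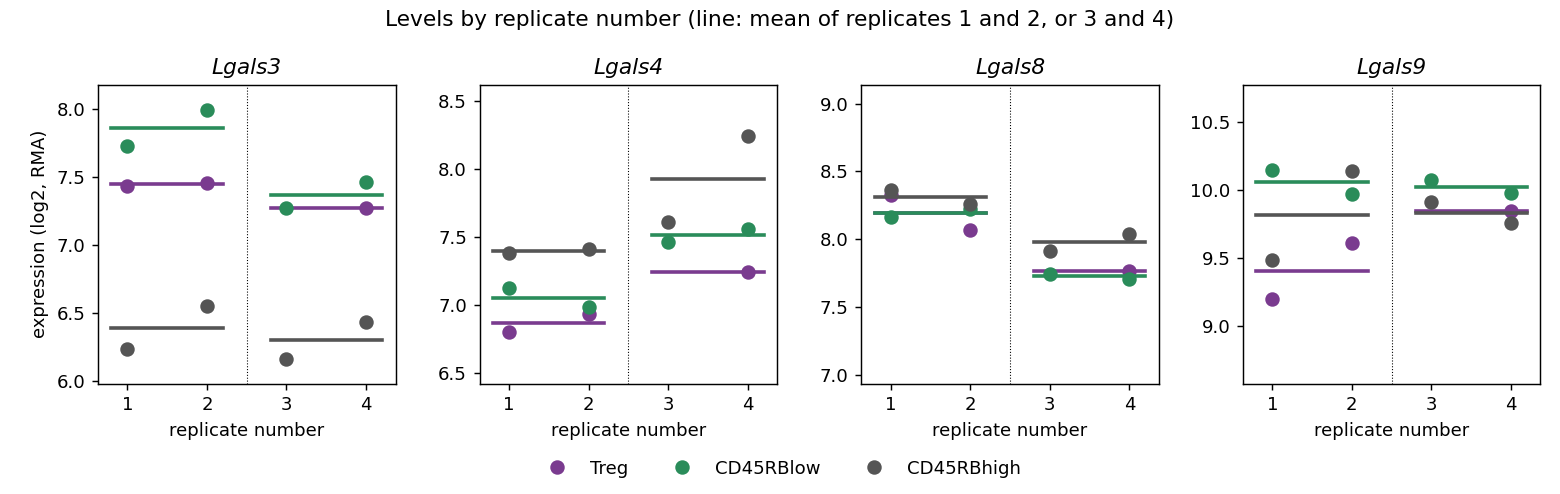
Log2 expression (vertical axis) of Lgals3, Lgals4, Lgals8 and Lgals9 by replicate number (horizontal axis), with points for arrays coloured by population and lines for the mean of arrays 1 and 2 and of arrays 3 and 4. Lgals8 lies lower and Lgals4 higher on arrays 3 and 4 in all 3 populations, while Lgals3 keeps CD45RBhigh cells lowest in both sets.

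Named genes outside the family whose levels ran most like those of the called galectins were found by Pearson correlation over the 11 arrays, which share populations and replicate sets. Closest to Lgals1 were S100a10, a partner of annexin A2, with r = 0.988, Il2rb, a chain of the interleukin-2 receptor, with r = 0.981, and Icam1, an adhesion molecule, with r = 0.973. After each population's mean was taken out, these were 0.799, 0.605 and 0.624. Closest to Lgals3 were the chemokine receptor Ccr9 (r = 0.969), the sulfotransferase Chst2 (r = 0.958) and the glycosyltransferase B4galnt4 (r = 0.954), which within populations were 0.712, 0.757 and 0.476. Closest to Lgals4 were the histone deacetylase Hdac5 (r = 0.969), the polycystin gene Pkd1 (r = 0.967) and the corepressor subunit Gps2 (r = 0.960). For Lgals4 the likeness was as high within populations, at 0.978, 0.949 and 0.948. The shift between replicate sets, called for Lgals4, was not taken out of these values, and its part in them was not tested. Lgals1 and Lgals3 correlated with each other at r = 0.898 over the 11 arrays and at 0.357 within populations.

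Genes on the ligand side of the galectins were read from 5 lists. Of 15 genes for N-glycan branching and trimming 11 were measured, and 1 was called between Treg and CD45RBhigh cells. This was Man2a2, a mannosidase that trims N-glycans, at -1.08 (SE 0.20, limma adjusted p = 0.00230). In limma's fit 0 of the 11 were called in the other comparisons, where 1 (Treg against CD45RBlow cells) and 4 (CD45RBlow against CD45RBhigh cells) had an unadjusted p under 0.05. Under the replicate block, 1 was higher and 2 lower in Treg against CD45RBhigh cells, 1 lower in Treg against CD45RBlow cells and 2 higher in CD45RBlow against CD45RBhigh cells. The block called 26.5%, 19.7% and 21.7% of all probe sets in these comparisons, and the fit without it 18.9%, 12.5% and 12.6%. The share of all probe sets with an unadjusted p under 0.05 was not counted. Mgat5, which makes the branch that galectins favour, differed by -0.032 in Treg against CD45RBhigh cells (limma adjusted p = 0.837). The list's median difference was 0.056 in that comparison.

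Of 20 genes listed for making or extending N-acetyllactosamine 19 were measured. The list also holds enzymes of other chains, B4galt7 among them, so its counts are not of N-acetyllactosamine enzymes alone. In Treg against CD45RBhigh cells 2 were called higher and 3 lower, in Treg against CD45RBlow cells 1 higher and 1 lower, and in CD45RBlow against CD45RBhigh cells 3 higher and 1 lower. The shares of all probe sets called were 18.9%, 12.5% and 12.6%, and the counts over these 19 genes were not tested against them. The replicate block gave 3 and 5, 2 and 2, and 5 and 4 in the same order, where it called 26.5%, 19.7% and 21.7% of all probe sets. B4galt4, a galactosyltransferase, was higher in Treg cells by 1.22 against CD45RBhigh cells (SE 0.13, limma adjusted p = 3.23e-05) and by 0.77 against CD45RBlow cells (limma adjusted p = 0.00181). B4galt7, which acts on the linker of proteoglycans, and the galactosyltransferase B4galt1 were lower in Treg than in CD45RBhigh cells, at -0.35 (limma adjusted p = 0.0152) and -0.28 (limma adjusted p = 0.0228). Gcnt2, which branches such chains, was lower in Treg than in CD45RBlow cells, at -0.64 (limma adjusted p = 0.00407), and higher in CD45RBlow than in CD45RBhigh cells, at 0.77 (limma adjusted p = 0.000606). Its means of 3.33 in Treg and 3.20 in CD45RBhigh cells lay under the first quartile of all values, which leaves the size of these differences uncertain. B3galt5, a galactosyltransferase for chains of another linkage, was also higher in CD45RBlow than in CD45RBhigh cells, at 0.27 (limma adjusted p = 0.00940), and B4galt7 was lower, at -0.30 (limma adjusted p = 0.0319). The list's medians were 0.023, 0.046 and -0.057 in the 3 comparisons, near those of all probe sets.

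Of 5 genes for core 1 and core 2 O-glycans 4 were measured, and Gcnt1, which makes the core 2 branch that carries galectin-1 ligands, was the only one of the 4 called. Of all probe sets, 18.9% were called in Treg against CD45RBhigh cells and 12.6% in CD45RBlow against CD45RBhigh cells. The replicate block added 1 lower call in Treg against CD45RBhigh cells, where it called 26.5% of all probe sets. Gcnt1 was higher by 1.35 in Treg cells (SE 0.23, limma adjusted p = 0.00137) and by 1.10 in CD45RBlow cells (limma adjusted p = 0.00508), each against CD45RBhigh cells, whose mean of 2.78 lay under the first quartile of all values, so that the size of these differences is uncertain. Of 8 sialyltransferase genes 7 were measured. In Treg against CD45RBhigh cells 2 were higher and 1 lower, in Treg against CD45RBlow cells 2 higher and 2 lower, and in CD45RBlow against CD45RBhigh cells 3 higher and 0 lower, beside the same shares of 18.9%, 12.5% and 12.6% of all probe sets. The replicate block gave 2 and 2, 2 and 2, and 4 and 0, where it called 26.5%, 19.7% and 21.7% of all probe sets. St3gal6 was lower in Treg cells by differences of -2.64 from CD45RBhigh cells (SE 0.13, limma adjusted p = 1.14e-07) and -3.27 from CD45RBlow cells (limma adjusted p = 8.16e-08). St3gal2 and St3gal5 were higher in Treg than in CD45RBhigh cells, by 1.15 (limma adjusted p = 0.000112) and 0.80 (limma adjusted p = 1.12e-05), and than in CD45RBlow cells, by 0.68 (limma adjusted p = 0.00778) and 0.36 (limma adjusted p = 0.00769). In CD45RBlow against CD45RBhigh cells, St3gal5, St3gal6 and St3gal2 were higher by 0.44, 0.63 and 0.47 (limma adjusted p = 0.00109, 0.00508 and 0.0380). St6gal1, whose product blocks galectin-1 binding, differed by 0.12 in Treg against CD45RBhigh cells (limma adjusted p = 0.416).

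Of 27 glycoproteins known to bind galectins 10 were measured. In Treg against CD45RBhigh cells 6 were higher and 1 lower, in Treg against CD45RBlow cells 6 higher and 1 lower, and in CD45RBlow against CD45RBhigh cells 3 higher and 0 lower. All probe sets were called in shares of 18.9%, 12.5% and 12.6%, and each of the higher counts includes Il2ra, the marker of the sort. Il2ra differed by 5.77 in the first of these comparisons, which is no finding. Itgae, an integrin chain, was higher than in CD45RBhigh cells by 4.47 in Treg cells and by 1.95 in CD45RBlow cells. Tgfbr2, a receptor for TGF-beta, was lower in Treg cells, at -0.89 against CD45RBhigh cells (limma adjusted p = 1.19e-06) and -0.71 against CD45RBlow cells (limma adjusted p = 1.75e-05). Cd44, the hyaluronan receptor, was higher in CD45RBlow than in CD45RBhigh cells by 1.50 (limma adjusted p = 0.00830).

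**Figure D4:**
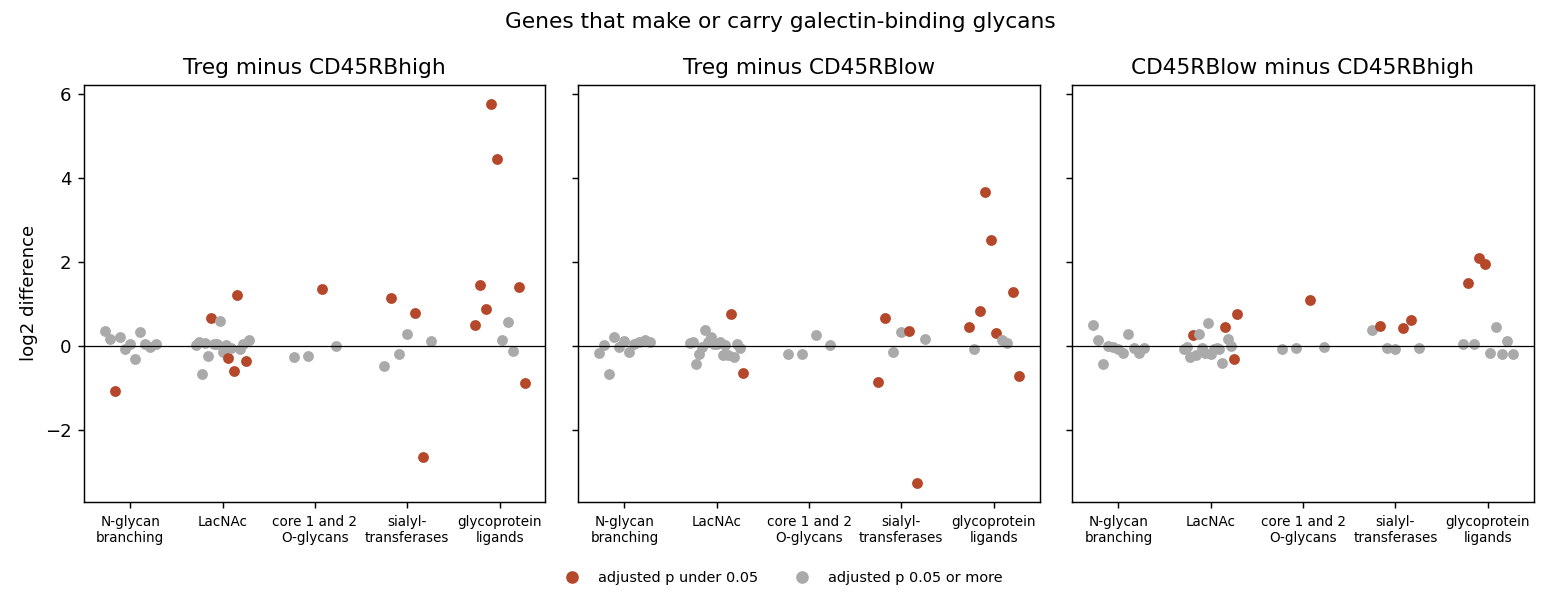
Log2 difference between populations (vertical axis) for every measured gene (points) of the 5 ligand-side lists (horizontal axis) in the 3 comparisons, coloured by whether the adjusted p was under 0.05. Most enzymes lie near 0, and the sialyltransferase point at -2.64 in Treg against CD45RBhigh cells is St3gal6.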

How the data were processed

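Biotin-labelled cRNA from total RNA was hybridised to 11 arrays of a custom Affymetrix glyco-gene chip. The values are log2 expression values that the authors normalised with RMA, per the submitters' processing notes, and deposited as 1 table of 1246 probe sets. Software versions and a genome build are not given in the sources used here. RMA works on all arrays together, so a value depends on the other arrays. Probe sets were named from the RefSeq accession in their ID, through a RefSeq table of GRCm38.p6, which named 963 and left 283 without a name. For a gene with several, the probe set with the highest mean was taken, and each galectin had 1. The probe sets of Lgals1, Lgals3, Lgals4, Lgals7 and Lgals9 carry a suffix for sets that may not be specific to 1 transcript.

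From these values limma 3.58.1 (R 4.3.3) fitted 1 mean per population on all 11 arrays, with moderated variances and Benjamini-Hochberg adjustment over all probe sets, without a low-value filter. The fit was tested on simulated data with independent noise on each array. That test held no shift between replicate sets, so it does not cover the shift seen in these data. The number of arrays limits the precision. The replicate numbers in the labels were checked for pairing by correlating deviations from the population means: the 10 same-number pairs lay between 0.310 and 0.561, the 10 pairs of another number within the sets 1 and 2 or 3 and 4 between 0.203 and 0.579, and the 20 pairs across the sets 1 and 2 against 3 and 4 lay between -0.646 and -0.175. The rule for pairing was that every same-number pair exceed 0.1, and it was met. Pairs that share only a set exceeded 0.1 too, so the check cannot tell pairing by number from the split between the sets. A fit blocked by number was run beside the unblocked one. Alternatives changed the scaling, filter, block and array set.

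Every galectin was named. From each ligand-side list, up to 3 called genes with the smallest adjusted p were named per comparison, and Mgat5 and St6gal1 were added after their values were seen. For each called galectin, 3 genes of highest correlation were named. The members and lists were chosen with earlier results of these data known.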

Additional observations from a re-analysis of the deposited data

Results flagged for a closer look

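Of 16 sets of 4 arrays, 1 had an array far from the rest. Lgals12 in CD45RBhigh cells read 3.86 on replicate 1, and the nearest of the other 3 arrays read 3.79, a gap of 0.846 of the set's range. Such a gap arises by chance in about 5% of sets, and all 4 values lie close to the first quartile of all values on these arrays.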

How the results depend on the processing

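Of 24 results (8 galectins in 3 comparisons), 21 kept their side of the threshold in all 24 alternatives. Lgals1 and Lgals3 stayed called in both comparisons with CD45RBhigh cells, at 1.42 to 1.53 and 0.93 to 1.12 in Treg cells and at 1.04 to 1.35 and 1.07 to 1.47 in CD45RBlow cells. The exceptions were Lgals4 in Treg against CD45RBhigh cells, Lgals4 in CD45RBlow against CD45RBhigh cells and Lgals9 in Treg against CD45RBlow cells. The number of galectins called between Treg and CD45RBlow cells, 0, became 1 with the replicate block and was 0 to 1 when an array was left out. The block changed no other call than this of Lgals9 and that of Lgals4 between CD45RBlow and CD45RBhigh cells. Besides the losses given above, Lgals4 in Treg against CD45RBhigh cells was not called in a fit of those populations alone (limma adjusted p = 0.0769) or without moderation (adjusted p = 0.111). Over all probe sets, arrays 3 and 4 gave 88, 49 and 63 calls and arrays 1 and 2 gave 257, 185 and 190, where all arrays gave 235, 156 and 157.

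Small differences that were not called changed sign. In Treg against CD45RBhigh cells, Lgals2 was 0.053 on arrays 3 and 4, Lgals9 was 0.0091 there, and Lgals7 was -0.0015 after centring, -0.11 after quantile scaling and -0.014 on arrays 1 and 2. In Treg against CD45RBlow cells, Lgals2 was -0.013, -0.017 and -0.063 after centring, quantile and loess scaling and -0.074 on arrays 1 and 2, and Lgals7 was -0.0082 after loess and -0.0054 on arrays 1 and 2. In CD45RBlow against CD45RBhigh cells, loess gave 0.020 for Lgals2 and 0.081 for Lgals7. With an array left out, Treg against CD45RBhigh cells gave -0.080 to 0.097 for Lgals7, -0.23 to 0.051 for Lgals8 and -0.0095 to 0.054 for Lgals12. Treg against CD45RBlow cells gave -0.084 to 0.052 for Lgals2, -0.067 to 0.11 for Lgals7 and -0.042 to 0.24 for Lgals8, and CD45RBlow against CD45RBhigh cells gave -0.050 to 0.033 for Lgals7. The cause was not tested. Averaging the probe sets of a gene was not run, since each galectin had 1.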

Other observations

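Lgalsl, a galectin-like gene outside the family list, was picked out after its values were seen. It read 5.69, 6.22 and 5.34 in Treg cells, 5.77, 5.79, 5.10 and 5.19 in CD45RBlow cells and 5.20, 4.68, 4.75 and 5.01 in CD45RBhigh cells. All Treg arrays lay above all CD45RBhigh arrays, and the CD45RBlow arrays overlapped both. Treg cells exceeded CD45RBhigh cells by 0.84 (SE 0.23, limma adjusted p = 0.0275). The difference of CD45RBlow from CD45RBhigh cells, 0.55, was not called (limma adjusted p = 0.129) and passed the threshold with the replicate block (adjusted p = 0.0357).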
